A study of Mus musculus with 48 samples.

Results

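Messenger RNA of 10 genes of the T cell receptor complex and of cytotoxic granules was followed in the mouse thoracic aorta. The genes were taken by name from a table of 18782 genes: Cd3d, Cd3e, Cd3g and Cd247, which encode the signalling chains of the receptor, the co-receptor genes Cd4 and Cd8a, and Nkg7, Gzma, Gzmb and Ctsw, whose products belong to the granules of killer lymphocytes. All 10 are listed in the table. The tissue came from C57BL/6J wild-type mice of both sexes, 1 library per mouse and 48 libraries in all. In the treated groups the mice were given 0.4% β-aminopropionitrile (BAPN), an inhibitor of the lysyl oxidases that cross-link collagen and elastin, in their drinking water for 28 days from an age of 3 weeks, and the controls drank plain water. There were 10 female controls (FeCon), 8 BAPN-treated females in which no aortic lesion was found by microscopy (FeNonAD) and 9 with aortic dissection or aneurysm (FeAAD). The male groups held 10 controls (MaCon), 4 lesion-free treated mice (MaNonAD) and 7 with dissection or aneurysm (MaAAD). The NonAD and AAD groups were thus separated by outcome after the same treatment, among mice that survived to the end of it.

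The T cell receptor reads peptides held on major histocompatibility complex molecules, and because its antigen-binding chains cannot signal by themselves, each receptor travels with CD3 gamma, delta, epsilon and the zeta chain encoded by Cd247. CD4 marks helper T cells and CD8 marks killer T cells, while cells still maturing in the thymus carry both. Killer T cells and natural killer (NK) cells store granzymes in granules and release them onto target cells. In a healthy artery such cells are few and lie mostly in the adventitia, and more of them are commonly seen in diseased aortic walls. RNA of whole tissue was measured, so fewer cells of a type and less RNA per cell cannot be told apart.

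RefSeq promoter windows, 250 bases before to 50 after the start of the gene on GRCm38.p6, matched 8 of the 10 genes, all but Cd4 and Ctsw. The 3 CD3 genes are shown because they lie side by side on chromosome 9 and their levels ran together over libraries, and the granzymes because they share a function but lie on chromosomes 13 and 14. The window of Cd3g is chr9:44980382-44980681 on the minus strand, that of Cd3d is chr9:44981536-44981835 on the plus strand, and that of Cd3e is chr9:45009562-45009861 on the minus strand. Those of Cd3g and Cd3d, which are read away from each other, are 854 bases apart. The windows of the granzymes are chr13:113100932-113101231 for Gzma and chr14:56262285-56262584 for Gzmb, both on the minus strand. The submitters' processing notes name GRCm39, another build, so these positions apply to GRCm38.p6 alone. Each is printed 5′ to 3′, with capitals for matches on either strand to TGTGGT, bound by RUNX factors, AGGAAG, a core of ETS factor sites, and CAGGTG, an E-box of E-proteins.
Cd3g: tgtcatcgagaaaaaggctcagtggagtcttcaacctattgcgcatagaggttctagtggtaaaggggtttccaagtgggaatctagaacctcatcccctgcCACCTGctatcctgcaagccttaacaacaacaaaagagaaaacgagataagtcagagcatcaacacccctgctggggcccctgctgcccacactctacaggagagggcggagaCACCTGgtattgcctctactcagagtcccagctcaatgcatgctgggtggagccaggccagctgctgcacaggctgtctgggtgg
Cd3d: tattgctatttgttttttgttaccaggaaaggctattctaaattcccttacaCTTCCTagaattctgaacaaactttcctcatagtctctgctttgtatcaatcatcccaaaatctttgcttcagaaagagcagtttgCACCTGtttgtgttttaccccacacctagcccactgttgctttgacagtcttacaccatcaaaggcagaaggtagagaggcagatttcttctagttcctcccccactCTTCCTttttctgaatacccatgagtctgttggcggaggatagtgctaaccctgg
Cd3e: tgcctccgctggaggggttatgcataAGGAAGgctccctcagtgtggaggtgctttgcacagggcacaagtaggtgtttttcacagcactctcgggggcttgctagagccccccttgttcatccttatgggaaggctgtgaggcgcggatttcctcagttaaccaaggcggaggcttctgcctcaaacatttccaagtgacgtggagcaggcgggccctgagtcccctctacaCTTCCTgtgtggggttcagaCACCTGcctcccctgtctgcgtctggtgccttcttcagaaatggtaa
Gzma: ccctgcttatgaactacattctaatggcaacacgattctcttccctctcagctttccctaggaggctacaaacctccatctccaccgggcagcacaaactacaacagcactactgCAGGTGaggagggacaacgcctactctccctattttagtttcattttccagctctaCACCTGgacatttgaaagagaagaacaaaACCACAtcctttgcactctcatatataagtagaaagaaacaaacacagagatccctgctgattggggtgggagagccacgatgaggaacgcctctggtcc
Gzmb: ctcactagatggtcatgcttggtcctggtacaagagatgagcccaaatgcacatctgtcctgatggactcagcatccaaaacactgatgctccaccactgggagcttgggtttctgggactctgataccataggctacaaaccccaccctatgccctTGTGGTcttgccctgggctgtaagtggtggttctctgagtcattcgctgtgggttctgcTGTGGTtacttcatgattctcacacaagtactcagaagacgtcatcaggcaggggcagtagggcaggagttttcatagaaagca

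The E-box letters were present in all 3 CD3 windows, with 2 matches in Cd3g, and in 5 of the 8 windows found, against 20.2% of 32851 promoter windows in the RefSeq table. The ETS letters stood in 4 of the 8, Cd3d, Cd3e, Cd247 and Nkg7, and in 35.4% of all windows. The RUNX letters stood in 3 of the 8, Gzma, Gzmb and Nkg7, and in 16.8% of all windows. TATAAA was found in none of the 8 and in 13.6% of all windows. These matches describe the letters of the windows only, and none was measured as a bound site.

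Library totals ran from 13548003 to 17281262 counts. Expression is given as CPM, reads scaled to a library of 1000000 with edgeR's TMM factors. The genes described here were measured from few reads, from 77 reads of Gzmb to 2853 of Cd8a over all 48 libraries. Differences were tested by the quasi-likelihood method of edgeR with the 48 libraries in 1 model, and a gene was called when its Benjamini-Hochberg adjusted p over all genes tested was under 0.05 and its log2 fold change was at least 1 in size. Of the 10, Cd3d, Cd3e, Cd3g, Cd247, Cd4, Cd8a and Ctsw passed the filter on low counts. Nkg7, Gzma and Gzmb did not, and their tests are from a fit of 18614 genes without that filter.

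One control library stood far from the others. MaCon2 held the highest level of 6 of the 10 genes among all 48 libraries, the genes of the receptor chains and both co-receptors, and from 15.6% to 29.3% of all reads of these genes came from it. Its Cd8a reached 54.6 CPM (835 reads) where the next library, FeNonAD5, had 11.1 CPM, and its Cd4 reached 28.3 CPM where FeNonAD5 had 6.44 CPM. Genes of maturing thymocytes were high in MaCon2 too. Rag1, which with Rag2 cuts the antigen receptor genes during T cell development, was at 38.6 CPM in MaCon2, 9.16 CPM in FeNonAD5 and at most 8.47 CPM elsewhere. Dntt, which adds bases at the receptor joints, was at 33.6 CPM in MaCon2, 6.13 CPM in FeNonAD5 and at most 6.18 CPM elsewhere, in MaNonAD2.

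Of 18 thymocyte markers, 15 were highest in MaCon2 among the 48 libraries, among them Rag1, Rag2, Dntt, Ptcra, Cd8b1, Themis, Arpp21, Ccr9, Satb1, Tcf7, Cd5, Aqp11, Endou and Tdrd5. Of 11 genes used as markers of thymic epithelium, Prss16 (0.916 CPM), Krt5 (0.589 CPM) and Tbata (2.42 CPM) were highest in MaCon2 and Psmb11 (0.248 CPM, 4 reads) in FeNonAD5. The defining thymic epithelial genes Foxn1 and Aire were at or near 0 everywhere, with no more than 1 and 2 reads in any library. None of 13 lymph node and B cell markers was highest in either library. The signal was not limited to those libraries. The summed level of Rag1, Rag2, Dntt and Ptcra ran from 0.2 to 79.2 CPM in MaCon with a median of 3.88 CPM, from 5.13 to 16.1 CPM in MaNonAD, from 0.465 to 12.2 CPM in MaAAD, from 0.195 to 6.71 CPM in FeCon, from 0.731 to 16.3 CPM in FeNonAD and from 0.0604 to 10.6 CPM in FeAAD. Whether the samples of MaCon2 and FeNonAD5, or of other libraries, held thymus tissue was not tested. Results are given with all libraries, without MaCon2 and FeNonAD5, and with the log2 level of Rag1 as a covariate, the last chosen after the data had been seen.

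Per kilobase of the longest coding transcript, the median level over the 48 libraries was highest for Cd3g, at 0.775 CPM per kb. Cd8a (0.559), Cd4 (0.486), Cd3e (0.453), Cd247 (0.411) and Cd3d (0.373 CPM per kb) followed, and the granule genes came last, with Ctsw at 0.248, Nkg7 at 0.24, Gzma at 0.121 and Gzmb at 0.0448 CPM per kb. The interquartile ranges over libraries of neighbours in this order overlapped throughout. The order differed between groups. In FeAAD Ctsw, at a median of 0.788 CPM per kb, was above all but Cd3g (0.854), and Nkg7 (0.403) was above Cd247 (0.398) and Cd8a (0.391). In FeNonAD Nkg7 (0.215) and Ctsw (0.205) were above Cd3d (0.171 CPM per kb).

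**Figure D1:**
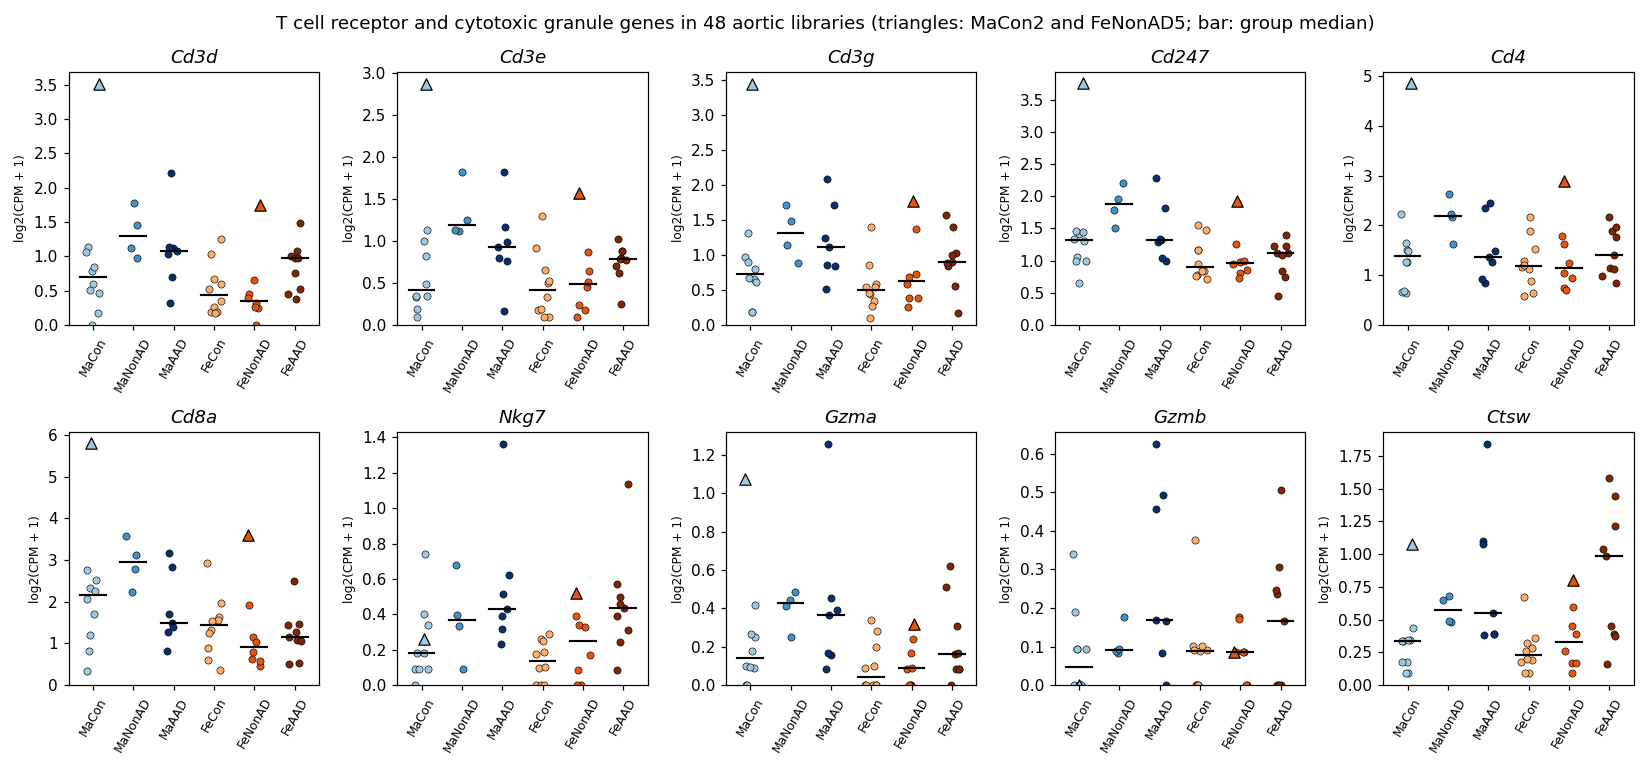
Level of each of the 10 genes in each library, as log2(CPM + 1), by group, with the group median as a bar and MaCon2 and FeNonAD5 as triangles. MaCon2 lies above all other libraries for Cd3d, Cd3e, Cd3g, Cd247, Cd4 and Cd8a, and MaAAD1 is the highest for Nkg7, Gzma, Gzmb and Ctsw.

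The first question was whether the lesioned aorta differed from the control aorta in each sex. Ctsw, which encodes cathepsin W, a protease of NK cells and CD8 T cells, rose in both sexes. Its level was lowest at 0.0656, had a median of 0.173 and was highest at 0.596 CPM in FeCon, against 0.121, 0.977 and 1.99 CPM in FeAAD. In FeAAD, 5 of 9 libraries were above every FeCon library and 8 of 9 above the FeCon median, so the groups overlapped only in part. The mean rose from 0.21 ± 0.153 CPM (SD, n = 10) to 0.906 ± 0.678 CPM (SD, n = 9), which edgeR fitted as 2.08 on the log2 scale (SE 0.50, adjusted p = 0.000692). No single library decided this call, which held when each of the 48 was left out in turn.

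In males, Ctsw ran from 0.0637 through a median of 0.266 to 1.11 CPM in MaCon, and from 0.307 through 0.465 to 2.59 CPM in MaAAD. All 7 MaAAD libraries were above the MaCon median, but only 2 were above the highest control, which was MaCon2. MaCon had a mean of 0.292 ± 0.304 CPM (SD, n = 10), and MaAAD one of 0.89 ± 0.836 CPM (SD, n = 7), with a log2 fold change of 1.58 (SE 0.50, edgeR adjusted p = 0.0115). With MaCon2 and FeNonAD5 left out it was 2.13 (adjusted p = 0.000673), beside 9.67% of all genes called higher, and 4 of the 7 lay above all controls. The male call rested on MaAAD1, a library with 43 Ctsw reads: without it the log2 fold change was 1.05 and the adjusted p 0.0973. Ctsw was the only one of the 7 genes tested that was called by edgeR in either comparison, 1 of 7 in each, while 11.4% of all tested genes were called in MaAAD against MaCon (9.18% as higher) and 12.7% in FeAAD against FeCon (9.94% as higher). Ctsw passed the filter on low counts through AAD libraries: 8 of them and 2 others reached its 0.638 CPM, where 4 libraries were needed. In the fit without that filter Ctsw was called as well, at 1.61 in MaAAD (edgeR adjusted p = 0.0127) and 2.08 in FeAAD (adjusted p = 0.000846).

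Nkg7, a membrane protein of killer-cell granules, was at 3 reads or fewer in every FeCon library. In FeAAD it ran from 1 through a median of 6 to 20 reads, and 7 of 9 libraries were above every control. Without the filter on low counts its log2 fold change was 1.89 (SE 0.58, edgeR adjusted p = 0.00879), and it was called in each of 37 further fits, which left out each Con or AAD library in turn or MaCon2 and FeNonAD5 together. The mean FeAAD level of 0.403 CPM was at least 1.8-fold higher than the 3 reads, or 0.223 CPM, taken as the floor of detection in a single FeCon library. In males Nkg7 ran from 0 through 2 to 10 reads in MaCon and from 3 through 6 to 26 in MaAAD, and its log2 fold change of 1.42 (SE 0.55, adjusted p = 0.0503) did not pass the test. It was called in 10 of the 37 further fits, those without MaCon1, MaCon10, MaAAD2, MaAAD3, MaAAD6, FeCon1, FeCon6, FeCon9, FeAAD5 or FeAAD6, with adjusted p from 0.0116 to 0.0487. The log2 fold change was highest without MaCon10, at 1.87, and lowest without MaAAD1, at 0.81 (adjusted p = 0.303).

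The granzymes are the proteases that enter the target cell, and they were the scarcest of the 10. Gzmb had at most 4 reads in MaCon, where 5 of 10 libraries had 0, and 0 to 9 reads with a median of 2 in MaAAD, where MaAAD1, MaAAD6 and MaAAD7 were above every control. It was called higher in MaAAD, by 1.84 on the log2 scale (SE 0.70, edgeR adjusted p = 0.0422, no filter), but the call was lost without any one of MaCon1, MaCon2, MaCon3, MaCon4, MaCon7, MaCon8, MaCon9, MaCon10, MaAAD1, MaAAD6 or MaAAD7, with log2 fold changes from 1.48 to 1.86 and adjusted p from 0.0521 to 0.128, and with MaCon2 and FeNonAD5 both left out (1.71, adjusted p = 0.0706). In females it ran from 0 to 4 reads in FeCon and from 0 to 7 in FeAAD, and the log2 fold change of 0.95 (SE 0.71, adjusted p = 0.324) did not pass. Gzma had 0 to 4 reads in FeCon and 0 to 9 in FeAAD (log2 fold change 1.17, SE 0.75, adjusted p = 0.234), and 0 to 17 reads in MaCon and 1 to 23 in MaAAD (0.81, SE 0.65, adjusted p = 0.382, and 1.65, adjusted p = 0.052 without MaCon2 and FeNonAD5). Without MaAAD1 the male value of Gzma turned to -0.04 (SE 0.68). A count of 0 in one library allows up to 3 reads, so differences of this size were at the edge of what the depth could show. With these 3 among the genes tested, 2 of 10 were called in each sex, Ctsw with Gzmb in males and with Nkg7 in females, beside 8.2% of all 18614 genes called higher in MaAAD and 9.04% in FeAAD.

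The CD3 genes, which carry the receptor's signal into the cell, were called by edgeR in neither sex with all libraries and no covariate. Cd3d ran from 0.13 through a median of 0.355 to 1.39 CPM in FeCon and from 0.294 through 0.967 to 1.8 CPM in FeAAD, with 8 of 9 libraries above the control median. The fitted change was 0.79 on the log2 scale for Cd3d (SE 0.66, adjusted p = 0.347), 0.62 for Cd3e (SE 0.61, adjusted p = 0.424) and 0.90 for Cd3g (SE 0.59, adjusted p = 0.215), and none passed. In males the values turned on MaCon2. Cd3d ran from 0 through 0.622 to 10.4 CPM in MaCon and from 0.248 through 1.11 to 3.62 CPM in MaAAD, so that the MaAAD median was 1.78 times that of MaCon while the mean was 0.822 times it.

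The fitted log2 fold changes in MaAAD against MaCon were -0.28 for Cd3d, -0.06 for Cd3e and -0.15 for Cd3g with all libraries, at adjusted p from 0.769 to 0.955. Without MaCon2 and FeNonAD5 they were 1.15 for Cd3d (SE 0.49, adjusted p = 0.0674), 1.09 for Cd3e (SE 0.49, adjusted p = 0.0838) and 1.11 for Cd3g (SE 0.46, adjusted p = 0.0546). All 3 changed sign and none passed the test. With the Rag1 level as a covariate, Cd3d (1.09, SE 0.43, adjusted p = 0.0412) and Cd3g (1.06, SE 0.38, adjusted p = 0.025) were called higher in MaAAD and Cd3e was not (1.03, SE 0.42, adjusted p = 0.0539).

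In females the same covariate gave calls for all 3 CD3 genes in FeAAD against FeCon: 1.44 for Cd3d (SE 0.42, adjusted p = 0.00468), 1.21 for Cd3e (SE 0.42, adjusted p = 0.0159) and 1.37 for Cd3g (SE 0.37, adjusted p = 0.00253). The covariate was fitted with the same slope in all groups. Pearson's r with Rag1 was 0.13 for Cd3d, 0.206 for Cd3e and 0.422 for Cd3g in FeAAD. In FeCon it was 0.794, 0.818 and 0.641, and whether that slope holds in each group was not tested. Ctsw stayed called in both sexes under the covariate, at 1.90 in males and 2.38 in females. With it, 4 of 7 genes were called in FeAAD, beside 10.2% of all genes called higher, and 3 of 7 in MaAAD, beside 9.54%. Cd247, whose zeta chain also serves Fc receptors of NK cells, was not called in either sex under any of the 3 fits. Its log2 fold change in FeAAD was -0.01 (SE 0.41) with all libraries, -0.0044 (SE 0.26) without MaCon2 and FeNonAD5 and 0.30 (SE 0.22) with the covariate.

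Neither co-receptor was called by edgeR in either sex. Cd8a, which marks killer T cells and most thymocytes, ran from 0.285 through 1.71 to 6.58 CPM in FeCon and from 0.433 through 1.22 to 4.64 CPM in FeAAD, and only 3 of 9 FeAAD libraries were above the FeCon median. It ran from 0.267 through 3.48 to 54.6 CPM in MaCon and from 0.756 through 1.8 to 8.02 CPM in MaAAD, with 2 of 7 above the MaCon median. The fitted log2 value was -0.38 in FeAAD (SE 0.69, adjusted p = 0.689). In MaAAD it came to -1.36 (SE 0.72, adjusted p = 0.139), and that value was 0.12 (SE 0.52, adjusted p = 0.88) without MaCon2 and FeNonAD5. Cd4, the helper T cell co-receptor, ran from 0.496 through 1.28 to 3.5 CPM in FeCon and from 0.805 through 1.66 to 3.48 CPM in FeAAD (log2 fold change 0.34, SE 0.56, adjusted p = 0.654). The value of Cd4 in MaAAD was -0.98 (SE 0.59, adjusted p = 0.202), and 0.47 (SE 0.40, adjusted p = 0.39) without MaCon2 and FeNonAD5.

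The ratio of Cd8a to Cd4 reads in a library had a median of 1.75 in MaCon, 1.92 in MaNonAD and 1.5 in MaAAD, and of 1.16 in FeCon, 0.955 in FeNonAD and 0.644 in FeAAD. Its ranges overlapped, from 0.5 to 2.42 in FeCon and from 0.368 to 1.33 in FeAAD. In MaCon2 the ratio was 1.93, inside the range of the other MaCon libraries, so both co-receptors were high there in a proportion seen elsewhere.

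**Figure D2:**
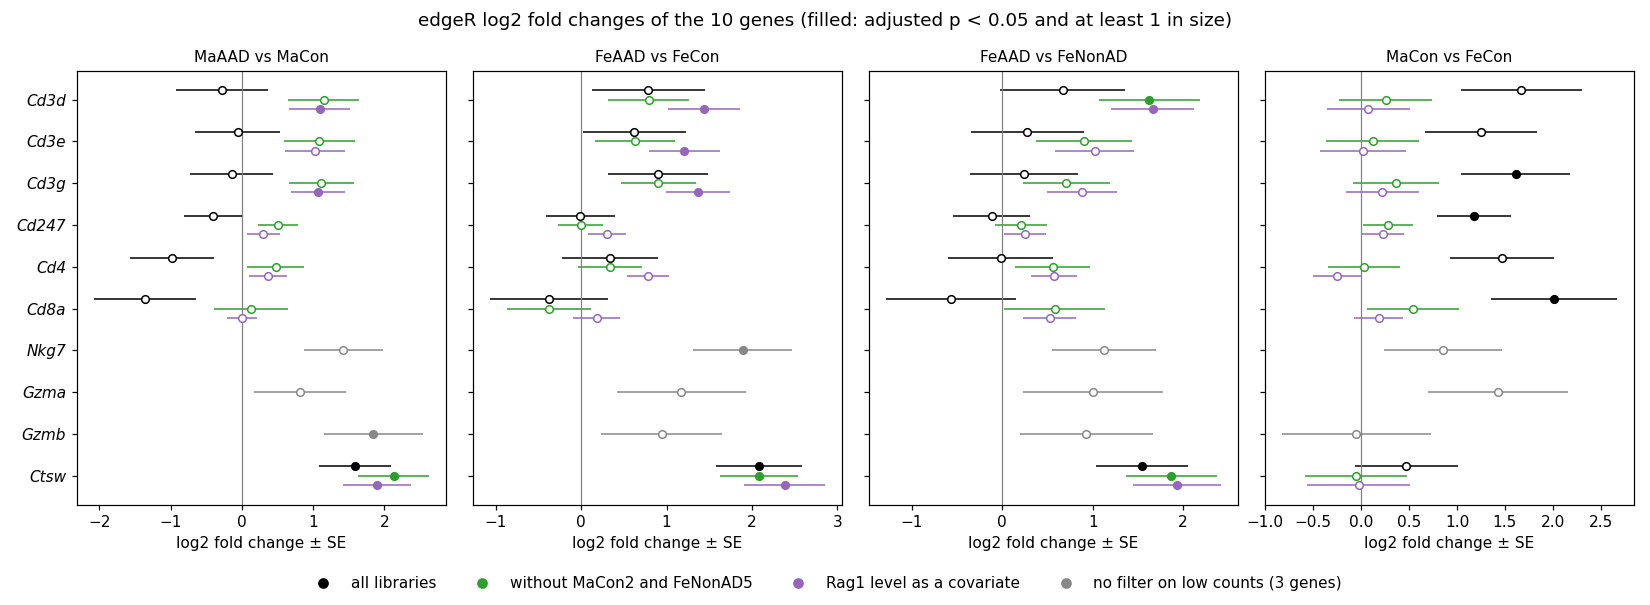
Fitted log2 fold change with its standard error for each gene in 4 comparisons, with all libraries (black), without MaCon2 and FeNonAD5 (green) and with Rag1 as a covariate (purple), and without the low-count filter for Nkg7, Gzma and Gzmb (grey), where filled points were called. Ctsw is filled in each fit of the first 3 panels, while the receptor chain and co-receptor genes are at or below 0 with all libraries in MaAAD against MaCon and above 0 in the other 2 fits, and in MaCon against FeCon no point is filled without MaCon2 and FeNonAD5.

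Lesioned and lesion-free aortas given the same treatment were compared next. These comparisons share the AAD libraries with those above. In FeNonAD, Ctsw ran from 0.0655 through 0.255 to 0.743 CPM, and it was called higher in FeAAD by 1.54 on the log2 scale (SE 0.51, edgeR adjusted p = 0.0282), 1 of 7 genes beside 7.04% of all genes called (6.79% as higher). This value is from the fit with the filter on low counts, which Ctsw passed through AAD libraries. The call was lost when any of FeNonAD2, FeNonAD3, FeNonAD4, FeNonAD7, FeAAD5 or FeAAD9 was left out, with log2 fold changes from 1.31 to 1.48 and adjusted p from 0.0534 to 0.0808. With MaCon2 and FeNonAD5 left out it was 1.87 (adjusted p = 0.00749). Cd3d, at 0 to 9 reads in the 7 other FeNonAD libraries and 5 to 30 in FeAAD, was then called as well, at 1.63 (SE 0.56, adjusted p = 0.0394), 2 of 7 beside 6.9% of all genes called higher, against 0.67 (SE 0.69, adjusted p = 0.529) with all libraries. Leaving out FeNonAD5 alone, which held 38 reads of Cd3d, gave 1.62 (SE 0.73, edgeR adjusted p = 0.122), which was not called. With the Rag1 level as a covariate and all libraries Cd3d was called, at 1.66 (edgeR adjusted p = 0.00836).

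In MaAAD against MaNonAD none of the 7 genes was called by edgeR or by DESeq2, and none had an unadjusted p under 0.05. Of all genes, 0.353% were called in this comparison of 7 against 4 libraries. Ctsw was at 0.599, 0.573, 0.394 and 0.401 CPM in MaNonAD1 to MaNonAD4, within the range of MaAAD, with a fitted log2 value of 0.84 (SE 0.63, adjusted p = 0.502). The other 6 were fitted as lower in MaAAD, from -0.09 for Cd3g to -1.17 for Cd8a (SE 0.86, adjusted p = 0.49), and as above 0 with Rag1 as a covariate.

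Treatment without a lesion was compared with plain water, using the same controls. In FeNonAD against FeCon, edgeR and DESeq2 called none of the 7 genes and no unadjusted p was under 0.05, beside 2.75% of all genes called. Their log2 fold changes ran from 0.11 for Cd247 to 0.66 for Cd3g. Without MaCon2 and FeNonAD5, 5 of the 7 changed sign, Cd8a to -0.95 (SE 0.55, adjusted p = 0.275) and Cd3d to -0.84 (SE 0.57, adjusted p = 0.363), and still none was called, beside 2.27% of all genes.

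In MaNonAD against MaCon none of the 7 was called by either tool and none had an unadjusted p under 0.05, beside 0.478% of all genes called. Cd3e was at 1.38, 2.55, 1.18 and 1.2 CPM in MaNonAD1 to MaNonAD4 and ran from 0.0658 through 0.334 to 6.35 CPM in MaCon, so that each MaNonAD library was above the control median but under MaCon2. Without MaCon2 and FeNonAD5, all 7 log2 fold changes were above 0, with a median of 1.27. All 7 then had an unadjusted p under 0.05, as had 1924 of 14411 genes. Their adjusted p ran from 0.1 to 0.34, and the highest was 1.69 for Cd3e (SE 0.55, adjusted p = 0.133), still short of a call. Of all genes 0.625% were then called, and their median was -0.0141. Rag1 moved the same way, at 4.85, 8.47, 2.5 and 6.88 CPM in MaNonAD1 to MaNonAD4 against 0.0668 to 6.68 CPM in the 9 other MaCon libraries. With Rag1 as a covariate and all 48 libraries the log2 fold change of Cd3e was 0.66 (SE 0.47), against 0.55 (SE 0.69) without the covariate. That of Cd8a was -0.04 (SE 0.32), against -0.19 (SE 0.82).

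The sexes were then compared within each condition. In plain-water controls, Cd8a (log2 fold change 2.01, SE 0.66, adjusted p = 0.0331), Cd247 (1.18, SE 0.39, adjusted p = 0.0346) and Cd3g (1.61, SE 0.57, adjusted p = 0.0478) were called higher in MaCon than in FeCon, 3 of 7 beside 1.51% of all genes called (0.644% as higher). These calls rested on MaCon2. Without it the log2 fold changes were 0.54 for Cd8a (adjusted p = 0.554), 0.28 for Cd247 (adjusted p = 0.547) and 0.36 for Cd3g (adjusted p = 0.656), and none of the 7 was called. With FeNonAD5 left out as well this was again 0, beside 1.28% of all genes. In the other 9 MaCon libraries Cd8a ran from 0.267 through 3.2 to 5.74 CPM, against 0.285 through 1.71 to 6.58 CPM in FeCon, and the ranges overlapped. Leaving out other libraries moved values less but also moved calls: Cd8a was lost without FeCon1, FeCon5, FeCon6 or FeCon10, Cd247 without FeCon1, FeCon4, FeCon5, FeCon6 or FeCon8, and Cd3g in 26 of 48 such fits. Without FeCon1 none of the 7 was called, at adjusted p of 0.063 for Cd8a, 0.0646 for Cd247 and 0.0892 for Cd3g, and without FeCon3 6 were called, with Cd3d (2.01, adjusted p = 0.0289), Cd3e (1.68, adjusted p = 0.0461) and Cd4 (1.60, adjusted p = 0.0411) added. Of all genes, 175 to 263 were called over the fits without single libraries.

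None of the 7 genes was called in MaNonAD against FeNonAD, beside 0.0485% of all genes, or in MaAAD against FeAAD, beside 0.0693%. DESeq2 called none there either, and 1 gene in the former and 0 in the latter had an unadjusted p under 0.05. With MaCon2 and FeNonAD5 left out, 6 of 7 had an unadjusted p under 0.05 in MaNonAD against FeNonAD, beside 823 of 14411 genes, with a median log2 fold change of 1.54. Cd8a was then at 2.78 (SE 0.64, adjusted p = 0.0993) and Cd247 at 1.54 (SE 0.34, adjusted p = 0.0626), and none was called by edgeR, beside 0.0416% of all genes. The difference between the sexes in the response to treatment was tested as an interaction. None of the 7 was called by edgeR or DESeq2, for NonAD or for AAD, and none had an unadjusted p under 0.05, beside 0.298% and 0.52% of all genes called. For Ctsw the sex difference in the AAD response was -0.50 (SE 0.71, adjusted p = 0.788) with all libraries and 0.044 (SE 0.67, adjusted p = 0.986) without MaCon2 and FeNonAD5, so the fold changes of the sexes were not shown to differ.

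The direction of the interactions turned on these libraries. For AAD, 0 of the 7 sex differences were above 0 with all libraries (median -0.98) and 7 of 7 without MaCon2 and FeNonAD5 (median 0.36), where none had an unadjusted p under 0.05. For NonAD, 3 of 7 were above 0 with all libraries (median -0.12) and 7 of 7 without them (median 1.43), where 5 of 7 had an unadjusted p under 0.05, beside 1652 of 14411 genes. The largest were then 2.26 for Cd3d (SE 0.80, adjusted p = 0.233) and 2.24 for Cd8a (SE 0.81, adjusted p = 0.239). None of the 7 was called in either interaction by edgeR, beside 0.153% of all genes for NonAD and 0.493% for AAD.

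How closely each gene followed Rag1 was measured within the 5 groups of at least 6 libraries, on log2(CPM + 1), in 50 correlations with two-sided permutation tests, exact for groups under 10 and with 100000 resamples for groups of 10, adjusted over the 50. Cd8a followed Rag1 in all 5 groups, with Pearson's r from 0.864 to 0.981 and an adjusted p under 0.05 for r in each, and Spearman's rho from 0.667 to 0.929 with an adjusted p under 0.05 in 3. Without the 2 libraries farthest from the median Rag1 level r was still 0.61 to 0.836. Cd4 came next, with r from 0.748 to 0.971 and an adjusted p under 0.05 in 4 of 5 groups, and rho from 0.476 to 0.927 with an adjusted p under 0.05 in 2 of 5, but r was 0.148 in FeNonAD without FeNonAD5 and FeNonAD8 and 0.369 in MaAAD without MaAAD1 and MaAAD2, so there the relation rested on those libraries.

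The CD3 genes followed Rag1 in some groups only. For Cd3e, r was 0.818 in FeCon (rho 0.891, adjusted permutation p = 0.0181 for r and 0.0207 for rho) and 0.826 without 2 libraries. In MaCon r was 0.878 (rho 0.685, adjusted permutation p = 0.0242 for r and 0.11 for rho) but 0.305 without MaCon2 and MaCon3, on which the relation rested. In FeNonAD r was 0.931 (rho 0.619, adjusted exact permutation p = 0.0199 for r and 0.213 for rho) but 0.349 without FeNonAD5 and FeNonAD8. In FeAAD r was 0.206 (rho 0.233, exact permutation p = 0.5, adjusted p = 0.543), and in MaAAD 0.605 (rho 0.286, exact permutation p = 0.16, adjusted p = 0.24) and -0.664 without MaAAD1 and MaAAD2. The difference between groups in these correlations was not tested. FeAAD9, with 0 reads of Rag1, had 16 Cd3d, 14 Cd3e and 14 Cd3g reads, and the ratio of Rag1 reads to the sum of the 3 CD3 genes had a median of 1.12 in FeCon, 0.552 in FeNonAD and 0.244 in FeAAD, and of 0.962 in MaCon, 1.17 in MaNonAD and 0.392 in MaAAD. Its ranges overlapped, from 0.3 to 2.22 in FeCon and 0 to 1.63 in FeAAD, and from 0.167 to 2.41 in MaCon and 0.0816 to 1.64 in MaAAD.

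For Ctsw r ran from -0.474 in FeAAD to 0.884 in FeNonAD, the only group with an adjusted p under 0.05, where it was 0.371 without FeNonAD5 and FeNonAD8. Nkg7 and Gzmb had none, and Gzma had MaCon alone, where r was 0.919 and 0.418 without MaCon2 and MaCon3.

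**Figure D3:**
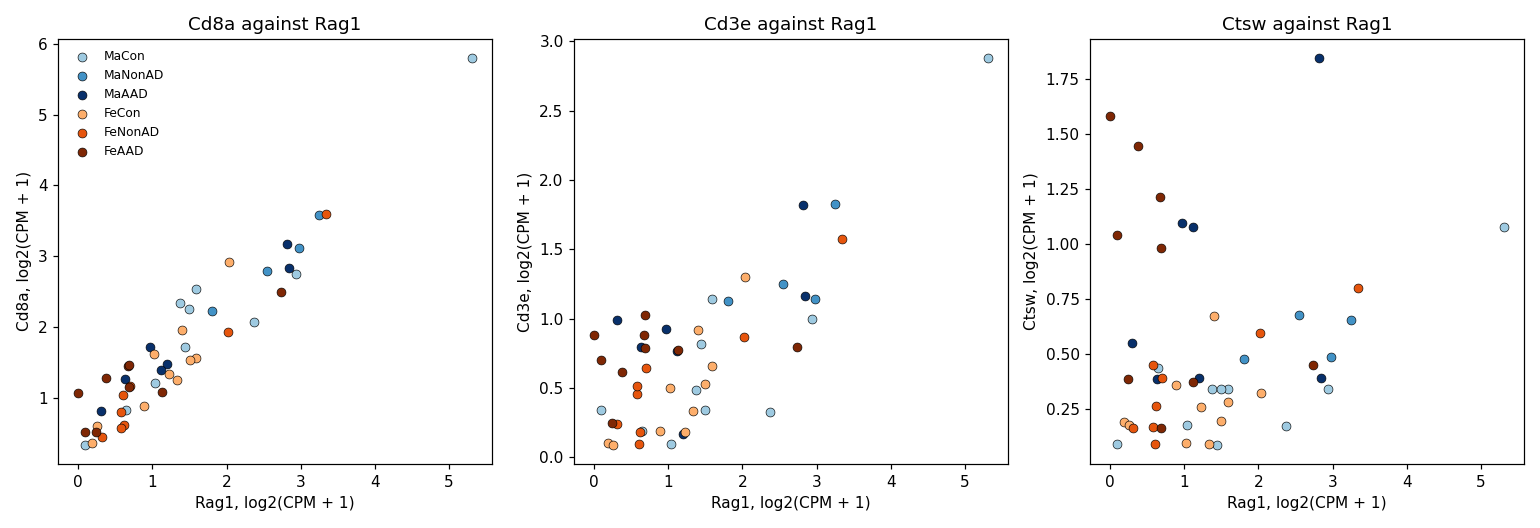
Level of Cd8a, Cd3e and Ctsw against Rag1 in each library, both as log2(CPM + 1), coloured by group. Cd8a rises with Rag1 in all 5 groups tested (r from 0.864 to 0.981), Ctsw shows r from -0.474 to 0.884, and MaCon2 is the point at the far right.

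The other genes of the pathway were taken from lists. Of 24 genes of receptor chains and proximal signalling, 21 are in the table and 18 were tested. In MaAAD against MaCon 4 rose and none fell, in FeAAD against FeCon 6 rose and none fell, and in FeAAD against FeNonAD 4 rose and none fell, where 9.18%, 9.94% and 6.79% of all genes were called higher. Genes low in controls can pass the filter on low counts through the AAD libraries alone, which holds for each list below. Vav1, an exchange factor that acts downstream of the receptor, rose by 2.48 in MaAAD and 2.44 in FeAAD on the log2 scale. The adaptor genes Lcp2 (1.99 in both) and Fyb (1.98 and 1.88) rose as well, and all 3 are also expressed by myeloid cells. With MaCon2 and FeNonAD5 left out, 17 were tested and 8 rose in MaAAD, 6 in FeAAD and 8 in FeAAD against FeNonAD, beside 9.67%, 9.99% and 6.9% of all genes called higher. The list's median log2 fold change was -0.15 in MaAAD and 0.68 in FeAAD, beside -0.03 and 0.00 for all genes. The MaAAD median turned to 0.77 without MaCon2 and FeNonAD5, with 16 of 17 above 0. In the 2 NonAD comparisons with controls edgeR and DESeq2 called none of the 18, and no unadjusted p was under 0.05. With MaCon2 and FeNonAD5 left out, 17 of 17 were above 0 in MaNonAD against MaCon (median 1.3), 13 had an unadjusted p under 0.05 and 1 was called higher, beside 1924 of 14411 genes at such a p and 0.625% called. The thymocyte markers moved with them, 16 of 16 above 0 in that fit with a median of 1.08 and 6 at an unadjusted p under 0.05, and their part in the result was not tested.

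Of 23 genes of T cell costimulation, differentiation and homing, 18 were tested, and 7 rose in MaAAD and 8 in FeAAD against controls, with none that fell, beside 9.18% and 9.94% of all genes called higher. Ccr7, the receptor that takes naive T cells and dendritic cells to lymph nodes, rose by 2.80 (SE 0.64, adjusted p = 0.000529) in MaAAD and 3.30 (SE 0.65, adjusted p = 4.94e-05) in FeAAD. Il7r, the receptor for interleukin-7, rose by 2.80 and 2.68, and Cxcr6, a receptor of tissue-homing T and NK cells, by 2.30 and 2.00. Cxcr6 ran from 0.682 to 1.39 CPM in MaAAD and averaged 0.203 ± 0.159 CPM (SD, n = 10) in MaCon. In FeNonAD 1 gene of this list was called lower than in FeCon (2 without MaCon2 and FeNonAD5), beside 2.75% and 2.27% of all genes called. In MaNonAD none was called by edgeR or DESeq2, with 3 at an unadjusted p under 0.05, beside 1734 of 14431 genes at such a p and 0.478% called. Without MaCon2 and FeNonAD5 1 was called higher in MaNonAD and 10 had an unadjusted p under 0.05, as had 1924 of 14411 genes. The median of the list was 1.21, in the fit where the thymocyte markers had a median of 1.08 and 0.625% of all genes were called.

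Of 26 other genes of granules and NK receptors, 24 are in the table and 8 passed the filter, Klrd1 and Klrk1 through AAD libraries alone. They were therefore counted in the fit without the filter, a choice made after the data had been seen. Of 22 tested there, 11 rose and 1 fell in MaAAD and 9 rose and none fell in FeAAD, beside 8.2% and 9.04% of all genes called higher. Klrd1, the CD94 subunit of NK receptors, had a median of 0 reads and at most 4 in FeCon, and from 3 through a median of 9 to 117 reads in FeAAD, where FeAAD5 held 117 of the 221 reads of the group. In the fit without the filter Klrd1 was at 4.72 on the log2 scale in FeAAD (SE 0.70, edgeR adjusted p = 6.32e-07), at 3.84 without FeAAD5 (adjusted p = 6.15e-06), and at 3.61 in MaAAD (SE 0.67, adjusted p = 3.88e-05). Klrk1, encoding the activating receptor NKG2D, rose by 2.64 in MaAAD and 3.66 in FeAAD in that fit, and Ccl5, a chemokine stored by killer cells, by 2.61 and 2.54. Gzmm, a granzyme gene, fell by 1.69 on the log2 scale in MaAAD (SE 0.27, adjusted p = 3.78e-06), from 2.44 ± 1.2 CPM (SD, n = 10) to 0.74 ± 0.202 CPM (SD, n = 7), and its value of -0.72 in FeAAD (SE 0.25, adjusted p = 0.0188) was under the size set for a call. Gzmm had 1101 reads over all libraries, against 146 of Gzma and 77 of Gzmb. In the 2 NonAD comparisons with controls none of the 22 was called by edgeR, with 4 in males and 5 in females at an unadjusted p under 0.05, and DESeq2 called none of the 8 that passed the filter. Of all genes in that fit, 0.349% were called in males and 2.38% in females, with 1948 and 4479 of 18614 at an unadjusted p under 0.05.

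Markers of other cells moved with the same comparisons. Of 10 macrophage and monocyte markers, 9 rose in MaAAD and 9 in FeAAD, beside 9.18% and 9.94% of all genes called higher, and their summed level ran from 336 to 528 CPM in MaCon, 738 to 3360 in MaAAD, 382 to 583 in FeCon and 597 to 5150 CPM in FeAAD. Ccr2 rose most, by 4.61 (SE 0.55, adjusted p = 1.56e-08) in MaAAD and 4.19 (SE 0.53, adjusted p = 1.76e-08) in FeAAD, and Itgam, Fcgr1 and Ly6c2 followed, with log2 fold changes from 2.70 to 3.80. Of 13 lymph node and B cell markers 9 were tested, and of these 5 rose in MaAAD, 8 in FeAAD, 5 in MaNonAD and 1 in FeNonAD, each against its control, where 11.4%, 12.7%, 0.478% and 2.75% of all genes were called. Cd79b rose by 3.09 in FeAAD, Pax5 by 2.65 and Fcer2a by 2.99, and the summed level of the list ran from 8.79 to 37.8 CPM in FeCon and 16.2 to 168 CPM in FeAAD. The lymph node vessel genes Glycam1 and Madcam1 had at most 2 and 3 reads in any library.

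Of 10 markers of mast cells, basophils and dendritic cells 9 were tested. In MaAAD 3 were called higher and 1 lower, and in FeAAD 3 higher and 0 lower, beside 11.4% and 12.7% of all genes called in either direction. Flt3 (3.86 in MaAAD, 3.43 in FeAAD), Clec9a (1.67 and 3.04) and Xcr1 (1.67 and 1.63), genes of the dendritic cells that can carry CD8 alpha, rose in both sexes, and Siglech of plasmacytoid dendritic cells fell by 1.00 in MaAAD (SE 0.36, adjusted p = 0.0265), a value at the size set for a call, and by 0.93 without MaCon2 and FeNonAD5 (adjusted p = 0.0474), where it was no longer called. Of the mast cell and basophil markers, Cpa3, Mcpt4, Cma1 and Fcer1a were tested and none was called by edgeR, with 1 in MaAAD and 0 in FeAAD at an unadjusted p under 0.05. That 1 was Fcer1a, at 1.42 on the log2 scale (SE 0.58, edgeR adjusted p = 0.0519), which DESeq2 called at 1.48 (adjusted p = 0.0453). The summed level of the 10 markers had a median of 30.1 CPM in MaCon and 38.5 CPM in MaAAD, and of 35.6 CPM in FeCon and 38.7 CPM in FeAAD, with overlapping ranges. Of 9 aortic wall markers, Eln rose by 1.22 and 1.42, Cnn1 fell by 1.22 and 1.09, Myh11 fell by 1.10 and 1.16, and Acta2 fell by 1.02 in MaAAD. The smooth muscle genes were abundant in every library, with Acta2 at 6430 CPM or more in MaAAD. Of 17 thymocyte markers tested, 0 were called in MaAAD by edgeR or DESeq2 (1 at an unadjusted p under 0.05), beside 11.4% of all genes called, with a median of -0.88. Without MaCon2 and FeNonAD5 1 of 16 was called higher in MaAAD, beside 9.67% of all genes, 3 had an unadjusted p under 0.05 and the median was 0.18. With all libraries Mns1 was the 1 of 17 called in FeAAD (2.01, SE 0.52, adjusted p = 0.00151), beside 12.7% of all genes. Of 6 thymic epithelial markers tested, none was called by edgeR in either AAD comparison with controls, with 2 in MaAAD and 4 in FeAAD at an unadjusted p under 0.05 and 0 and 1 called by DESeq2, beside 11.4% and 12.7% of all genes called by edgeR and 6288 and 7323 of 14431 at that unadjusted p. The part of these other cells in the change of Ctsw, Nkg7 and Gzmb was not tested.

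The genes with the most similar pattern were sought over the 46 libraries other than MaCon2 and FeNonAD5, among 14424 tested genes, by Pearson's r of log2(CPM + 1). Nearest to Cd3e were Lck (r = 0.798), Ptprcap (0.782), Carmil2 (0.782), Cd8b1 (0.78) and Cd27 (0.779), of which Lck, Cd8b1 and Cd27 are T cell genes. Nearest to Gzma were Ms4a4b (0.684), Hacd2 (0.68), Cd2 (0.676), Smagp (0.658) and Cd96 (0.652), of which Ms4a4b, Cd2 and Cd96 are lymphocyte genes. Nearest to Ctsw, a search added after its values were seen, were Ltb (0.838), Upp1 (0.833), Haao (0.825), Scimp (0.823) and Rasal3 (0.822). The lists do not share a gene. Among the 10 genes themselves, r was 0.761 to 0.842 between the CD3 genes and 0.803 between Cd4 and Cd8a, but 0.254 between Ctsw and Cd4 and 0.18 between Ctsw and Cd8a, while Ctsw and Nkg7 had an r of 0.684. These libraries share groups and tissue, and all r values here are descriptions.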

How the data were processed

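Strand-specific RNA-seq libraries of the thoracic aorta were made from 48 mice, 1 per mouse. The authors deposited expected counts per gene from RSEM 1.3.1 with Bowtie2 and the GRCm39 build, per the submitters' processing notes. Of all values 4.99% were not whole, none of them in the 10 genes, and all were rounded.

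Counts were fitted in R 4.3.3 with edgeR 4.0.16 (filterByExpr, minimum count 10, TMM, robust quasi-likelihood, 6 group means), which tested 14431 genes, with Benjamini-Hochberg adjustment. Genes were called at an adjusted p below 0.05 with a log2 change of 1 or more in either direction. Standard errors were derived from the fold change and its F statistic. Alternatives were DESeq2 1.42.0, its size factors, no filter, adjusted p alone, a replicate block and libraries left out. Scripts were tested on simulated counts. Permutation tests were computed with numpy 2.4.6, and their p were adjusted with scipy 1.17.1. The floor was 3 counts and covers counting error only.

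The members, the lists and the tests were chosen with earlier results of these data known. Named list genes are the up to 4 called genes with the largest change in AAD against Con of either sex, with the thymocyte, thymic epithelial and B cell markers highest in MaCon2 or FeNonAD5; some are not reported here. The 5 genes most like Cd3e and Gzma were taken by Pearson's r. Lengths are of the longest coding transcript in GENCODE M21.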

Additional observations from a re-analysis of the deposited data

Results flagged for a closer look

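In 18 of 60 gene and group combinations 1 library stood apart from the others of its group by Dixon's test. That test flags about 1 in 20 for independent normal values. Genes of a few reads do not give such values, and the same library is counted in several genes. The share found therefore cannot be set against that rate. MaCon2 did so in 8 genes, at 10.4 CPM for Cd3d, 6.35 for Cd3e, 9.95 for Cd3g, 12.6 for Cd247, 28.3 for Cd4, 54.6 for Cd8a, 1.11 for Gzma and 1.11 CPM for Ctsw. The highest other MaCon library was at 1.2 CPM for Cd3d, 5.74 for Cd8a and 0.352 CPM for Ctsw. FeNonAD5 did so in 3, at 2.35 CPM for Cd3d, 2.79 for Cd247 and 11.1 CPM for Cd8a.

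MaAAD1 stood apart in Nkg7 (1.57 CPM) and Gzma (1.39 CPM), FeAAD6 in Nkg7 (1.2 CPM), and FeAAD2 in Cd8a (4.64 CPM, where the other FeAAD libraries reached 1.76 CPM). FeCon7 stood apart in Gzmb (0.298 CPM, 4 reads) and Ctsw (0.596 CPM, 8 reads), and MaNonAD3 in Gzmb (0.131 CPM, 2 reads against 1 in each of the other MaNonAD libraries). The values of Gzmb rest on single reads.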

How the results depend on the processing

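Of the 7 genes tested, 1 was called in MaAAD against MaCon. The number was 2 of 10 with DESeq2, 2 of 10 without the filter on low counts, 3 with Rag1 as a covariate and 0 to 1 without single libraries. DESeq2 was run without that filter, so its counts here are of all 10 genes. Of all genes, 1639 were called, and 1803, 1878, 1698 and 1458 to 1761 under these settings in turn. In FeAAD against FeCon the number was 1, and 2, 2, 4 and 1 under the same settings. Of all genes, 1836 were called there, and 2064, 2196, 1874 and 1568 to 1974 in turn. In FeAAD against FeNonAD the number was 1, and 0 with the replicate block, 2 without MaCon2 and FeNonAD5, 2 with the covariate and 0 to 1 without single libraries. Of all genes, 1016 were called there, and 899, 1029, 1062 and 713 to 1182 in turn. In MaCon against FeCon the number was 3, and 5 of 10 with DESeq2, 0 with the block, 0 without MaCon2 and FeNonAD5, 0 with the covariate and 0 to 6 without single libraries. Of all genes, 218 were called there, and 281, 185, 184, 200 and 175 to 263 in turn. The covariate, the left-out libraries other than those of MaNonAD and the unfiltered fits without libraries were chosen after seeing the data.

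Signs of log2 fold changes turned as follows, and the cause was not tested. In the fit without the filter, Gzma in MaAAD against MaCon became -0.04 without MaAAD1. With the replicate block, in MaNonAD against MaCon they became 0.26 (Cd3g), 0.16 (Cd4) and 0.20 (Cd8a), in FeNonAD against FeCon -0.20 (Cd8a), in MaAAD against MaCon 0.25 (Cd3d), 0.19 (Cd3e) and 0.21 (Cd3g), in MaAAD against FeAAD 0.022 (Ctsw, and 0.0048 without the filter), and in the sex difference of the NonAD response 0.47 (Cd3d) and 0.40 (Cd8a). Without MaCon2 and FeNonAD5, in MaNonAD against MaCon they became 1.20 (Cd3g), 1.21 (Cd4) and 1.28 (Cd8a), in FeNonAD against FeCon -0.84 (Cd3d), -0.27 (Cd3e), -0.21 (Cd247), -0.22 (Cd4) and -0.95 (Cd8a), in MaAAD against MaCon 1.15 (Cd3d), 1.09 (Cd3e), 1.11 (Cd3g), 0.51 (Cd247), 0.47 (Cd4) and 0.12 (Cd8a), in FeAAD against FeNonAD 0.21 (Cd247), 0.56 (Cd4) and 0.58 (Cd8a), in MaCon against FeCon -0.057 (Ctsw), in the sex difference of the NonAD response 2.26 (Cd3d), 1.00 (Cd3g), 1.43 (Cd4) and 2.24 (Cd8a), and in that of the AAD response 0.36 (Cd3d), 0.46 (Cd3e), 0.21 (Cd3g), 0.51 (Cd247), 0.13 (Cd4), 0.50 (Cd8a) and 0.044 (Ctsw). With the covariate, in MaNonAD against MaCon they became 0.11 (Cd3g) and 0.091 (Cd4), in FeNonAD against FeCon -0.22 (Cd3d) and -0.34 (Cd8a), in MaAAD against MaCon 1.09 (Cd3d), 1.03 (Cd3e), 1.06 (Cd3g), 0.30 (Cd247), 0.36 (Cd4) and 0.0020 (Cd8a), in FeAAD against FeCon 0.30 (Cd247) and 0.18 (Cd8a), in FeAAD against FeNonAD 0.26 (Cd247), 0.57 (Cd4) and 0.52 (Cd8a), in MaCon against FeCon -0.25 (Cd4) and -0.028 (Ctsw), in MaAAD against MaNonAD 0.82 (Cd3d), 0.37 (Cd3e), 0.95 (Cd3g), 0.17 (Cd247), 0.27 (Cd4) and 0.040 (Cd8a), in MaNonAD against FeNonAD -0.16 (Cd3g) and -0.37 (Cd4), in MaAAD against FeAAD -0.27 (Cd3d), -0.17 (Cd3e), -0.088 (Cd3g) and -0.67 (Cd4), and in the sex difference of the NonAD response 0.50 (Cd3d) and 0.30 (Cd8a). In MaNonAD against MaCon they became -0.26 (Cd3d) and -0.0053 (Cd247) without MaNonAD2, 0.16 (Cd3g) and 0.037 (Cd8a) without MaNonAD3, and -0.046 (Cd3d) and 0.045 (Cd3g) without MaNonAD4, and over the fits without these libraries or without MaCon2 and FeNonAD5 they ran from -0.26 to 1.42 for Cd3d, -0.28 to 1.20 for Cd3g, -0.0053 to 1.05 for Cd247, -0.43 to 1.21 for Cd4 and -0.47 to 1.28 for Cd8a. Over the same fits they ran in MaAAD against MaNonAD from -0.47 to 0.020 for Cd3d and -0.26 to 0.18 for Cd3g, and in the sex difference of the NonAD response from -0.38 to 2.26 for Cd3d, -0.098 to 1.96 for Cd3e, -0.95 to 1.00 for Cd3g, -0.12 to 1.26 for Cd247, -0.79 to 1.43 for Cd4 and -0.66 to 2.24 for Cd8a.

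Libraries of different groups share replicate numbers in their titles but come from different mice. Same-numbered libraries had mean correlations of deviations from -0.0611 to 0.145, and at most 2 per comparison matched their own number best. Single pairs ran from -0.503 to 0.428. Whether same-numbered libraries shared handling, such as a batch or cage, was not tested. Of all genes, 51 were called in MaAAD against MaNonAD, and 518 by DESeq2, 168 with its size factors, 231 with the covariate 0 without the filter, with the block or without MaCon2 and FeNonAD5, and 0 to 712 without single libraries. Without the minimum fold change 2096 in place of 397 were called in FeNonAD against FeCon, 5050 in place of 1639 in MaAAD against MaCon, 6410 in place of 1836 in FeAAD against FeCon, 2625 in place of 1016 in FeAAD against FeNonAD, 2060 in place of 218 in MaCon against FeCon and 194 in place of 75 in the sex difference of the AAD response. In the sex difference of the NonAD response 43 genes were called, 93 by DESeq2, 22 without MaCon2 and FeNonAD5 and 12 to 117 without single libraries. In that of the AAD response DESeq2 called 129, and 49 to 150 were called without single libraries. Without single libraries 15 genes or more were called in MaNonAD against MaCon, in place of 69, and 5 in place of 10 were called in MaAAD against FeAAD with the block. Depth limits Nkg7, Gzma and Gzmb most, at 207, 146 and 77 reads in all, and MaNonAD, with 4 libraries, limits each comparison it enters.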
